A study of Mus musculus with 4 samples.

Results

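The genes described here are 40 cell cycle and DNA replication genes, chosen by name for the machinery that copies DNA and divides the cell, measured in RNA of the entire mouse kidney shortly before birth, at E18.5. Both groups carried Six2GFPcre, a transgene that expresses Cre in the nephron progenitors, so that recombination is passed on to the nephron cells they give rise to but leaves stroma, vessels and ureteric tree unrecombined. The mutant group (genotype Hnf4a c/c ; Six2GFPcre, 2 libraries) had both Hnf4a alleles conditional, and the control group (Hnf4a c/+ ; Six2GFPcre, 2 libraries) had 1, so the controls could themselves lose 1 copy of Hnf4a, a nuclear receptor of the proximal tubule. The strain is given as mixed, the labels do not name the animals behind each library. Within each group replicate 1 was low and replicate 2 high in the female-specific transcript Xist, so the libraries of a group are not repeats of 1 sample, and the spread behind each p includes a difference in sex. Of the 40 genes, 39 had a row of their own among the 22662 names joined over the 4 tables, and Foxm1, a transcription factor of mitotic genes, was listed only in a row shared with 4933413G19Rik. Expression was given as FPKM (fragments per kilobase of transcript, scaled to the mapped fragments of the library), and 38 of the 39 reached an FPKM of 1 in at least 2 libraries and were tested. The 39th was Ccne2.

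A dividing cell first loads the Mcm2 to Mcm7 helicase on its DNA with the help of Cdc6 and Cdt1, then fires it with cyclin E or cyclin A bound to Cdk2, and copies the strands around the sliding clamp Pcna. Mitosis follows under cyclin B and Cdk1, with the Aurora and Polo kinases and the checkpoint proteins taking part, while kinesins help to move the chromosomes. It ends when the anaphase-promoting complex destroys cyclin B and its other substrates. In the embryonic kidney the nephron progenitors, the ureteric tips, the stroma and the early tubules all divide, so that in whole-kidney RNA a change in the number of dividing cells and a change in the RNA per dividing cell cannot be told apart.

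The promoters of these genes differ between the phases, and a few are shown because the replication and mitosis genes are set side by side below. As background, E2F factors bind words such as TTTGGCGC in genes of the G1 to S transition, whereas genes of G2 and mitosis often carry a cell cycle homology region (CHR, TTTGAA) near boxes for NF-Y (CCAAT). RefSeq windows on GRCm38.p6, from 250 bases before to 50 after a start site, were found for 32 of the 40 genes, in 33 windows. The windows are written 5′ to 3′ on the strand of the gene, with matches in capitals to the E2F words (TTTCCCGC, TTTGGCGC, TTTGCCGC or TTTCGCGC), the CHR words (TTTGAA or TTCGAA) and CCAAT, each searched on both strands. Where matches overlap or touch they run together as 1 block of capitals.
Mcm6, chr1:128359656-128359955, minus strand: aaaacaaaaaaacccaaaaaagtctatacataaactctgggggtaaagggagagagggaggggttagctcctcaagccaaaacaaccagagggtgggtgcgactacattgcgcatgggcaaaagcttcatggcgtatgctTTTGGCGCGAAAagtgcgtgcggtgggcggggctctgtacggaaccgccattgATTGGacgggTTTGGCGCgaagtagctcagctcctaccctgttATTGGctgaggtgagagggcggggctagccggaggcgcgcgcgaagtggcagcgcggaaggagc
Cdk1, chr10:69352863-69353162, minus strand: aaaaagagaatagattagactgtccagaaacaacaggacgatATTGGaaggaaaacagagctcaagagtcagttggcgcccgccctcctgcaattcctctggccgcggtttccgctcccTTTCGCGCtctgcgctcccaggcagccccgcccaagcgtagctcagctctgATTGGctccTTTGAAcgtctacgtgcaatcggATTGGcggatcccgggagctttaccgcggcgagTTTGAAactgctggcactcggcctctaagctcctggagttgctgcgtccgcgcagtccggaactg
Ccnb2, chr9:70421505-70421804, minus strand: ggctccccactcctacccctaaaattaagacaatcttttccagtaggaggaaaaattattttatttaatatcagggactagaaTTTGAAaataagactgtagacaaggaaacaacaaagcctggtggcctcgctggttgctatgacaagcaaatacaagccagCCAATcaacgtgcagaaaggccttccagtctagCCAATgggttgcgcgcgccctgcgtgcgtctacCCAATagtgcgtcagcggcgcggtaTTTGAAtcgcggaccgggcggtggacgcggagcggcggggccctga
Ccne1, chr7:38107441-38107740, minus strand: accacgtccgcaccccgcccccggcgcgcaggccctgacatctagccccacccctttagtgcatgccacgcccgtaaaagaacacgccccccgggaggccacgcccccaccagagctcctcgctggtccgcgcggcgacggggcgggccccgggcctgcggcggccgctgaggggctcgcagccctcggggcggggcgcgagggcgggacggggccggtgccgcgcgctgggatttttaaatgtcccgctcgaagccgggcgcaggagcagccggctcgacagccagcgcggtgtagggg

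Mcm6, a helicase subunit, held 3 E2F matches and 2 CCAAT matches, and Ccnb2, a B-type cyclin, held 2 CHR matches and 3 CCAAT matches. Cdk1, the kinase of mitosis, held all 3 kinds. Ccne1 is shown because it had the smallest p of the 38 genes, and its window held none of these words. An E2F word was present in 43.8% of the 16 windows of replication genes, in 5.88% of the 17 windows of mitosis genes and in 2.26% of all 32851 windows. A CHR word was present in 12.5% of replication windows, in 76.5% of mitosis windows and in 19.2% of all windows. CCAAT was present in 62.5%, 88.2% and 37.4%, in the same order. A pair of CCAAT matches 31 to 33 bases apart, a spacing looked for after the windows were seen, was present in 5 of the 17 mitosis windows, in 0 of the 16 replication windows and in 0.971% of all windows. Over the 12426 windows of all genes that passed the same level filter as the 38, E2F words were present in 3.76% and CHR words in 13.5%. In these windows CCAAT was present in 37.1% and such a CCAAT pair in 1.55%. The CHR share of replication windows was near that of this set. Matches of this kind describe letters in a window and do not show that a factor binds there. Only these exact words were searched, so a window without them, such as that of Ccne1, is not shown to lack binding sites.

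**Figure D1:**
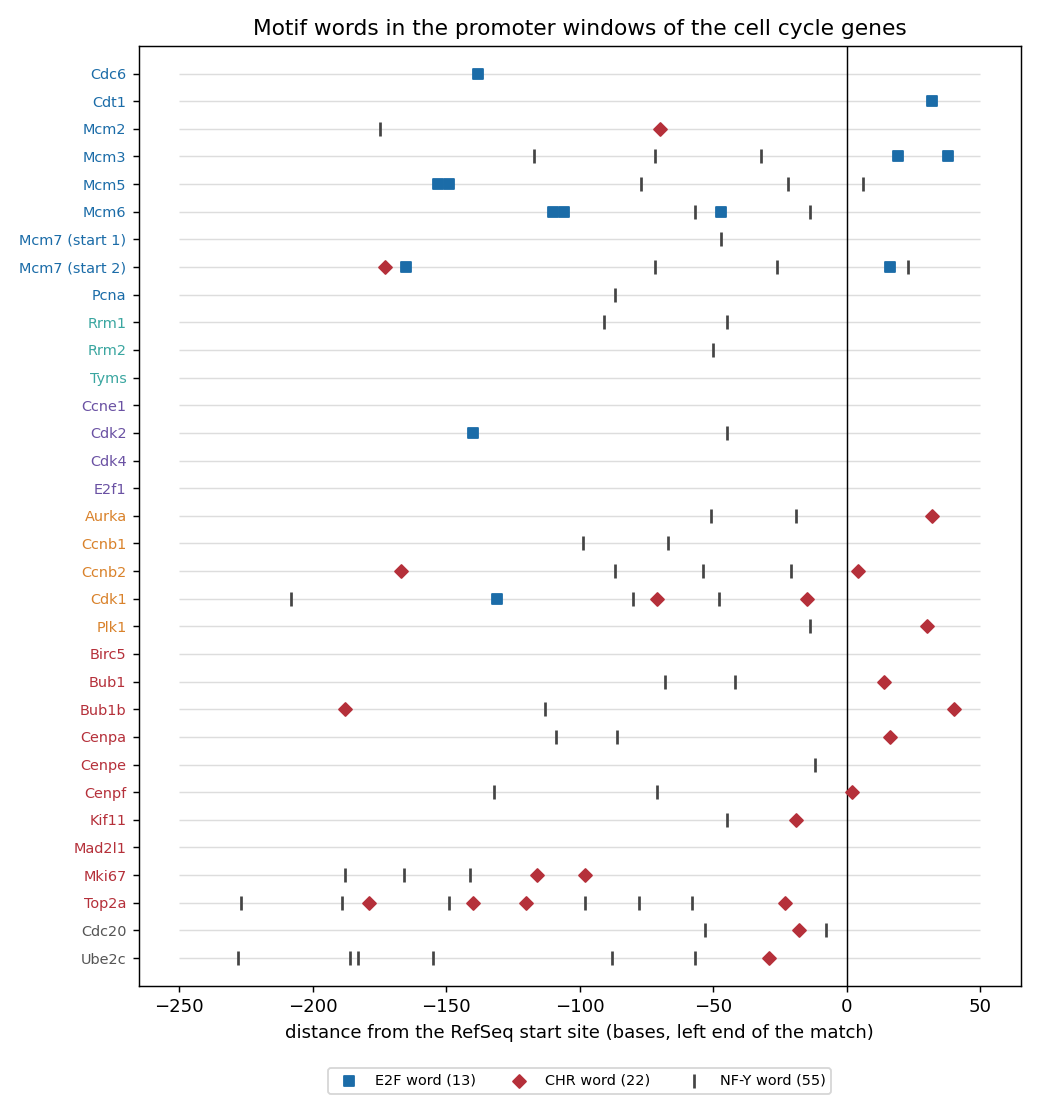
Positions of E2F, CHR and CCAAT (NF-Y) words, as distance in bases from the RefSeq start site, in the 33 promoter windows of the cell cycle genes, with gene names coloured by role and replication genes at the top. CHR words were present in 13 of the 17 mitosis windows and in 2 of the 16 replication windows, and E2F words in 1 and 7.

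Of the libraries as a whole, Hnf4a was at 87.1 and 78.5 FPKM in mutant libraries and at 89.3 and 84.6 in control libraries, a value over the whole gene that does not check the genotype, because no source used here says which part is removed. Between 13552 and 13646 names reached 1 FPKM per library, and the read depth is unknown. The summed level of 6 proximal tubule markers, genes of the cells that need Hnf4a, was 92.2 and 84.2 FPKM in mutant libraries and 283 and 222 in control libraries, with 6 of 6 lower without overlap and 1 of 6 (Vil1) past the threshold. Of the compartments that divide, 6 nephron progenitor markers summed to 184 and 175 FPKM in mutant libraries and 194 and 152 in control libraries, and 5 stromal markers to 328 and 279 against 379 and 322. Taken gene by gene, 3 of the 6 progenitor markers were higher in mutant libraries without overlap and 0 lower. For the 5 stromal markers these counts were 0 and 1, and for 4 ureteric markers 1 and 0. Over all genes tested 22.7% were higher and 17.1% lower without overlap. The sums of ureteric, endothelial, podocyte and macrophage markers overlapped between the groups. The 5 leukocyte markers summed to 19.2 and 25.4 FPKM in mutant libraries, against 11.7 and 16.1 in control libraries, without overlap. Of them 2 were under 1 FPKM in all libraries, and the 3 tested were low, with mean levels from 5.34 to 6.25 FPKM. Erythroid markers summed to 32.8 and 37.5 FPKM in mutant libraries and 25.5 and 32.2 in control libraries, but the 4 tested went both ways, with log2 changes from -1.30 (Hbb-y, lower without overlap) to 0.53 (Alas2, higher without overlap). Outside the proximal tubule list 0 of these markers passed the threshold, and 0 of those with a row were at 0 in all libraries. The part of these markers in the levels of the cell cycle genes was not tested.

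In the mutant kidneys none of the 38 tested genes differed from the controls past the threshold. With limma on log2(FPKM + 1) and Benjamini-Hochberg adjustment over all 13287 genes tested, 0 of the 38 passed an adjusted p of 0.05, where 0.158% of all genes passed, 0.0452% higher and 0.113% lower in mutant kidneys. The smallest adjusted p was 0.474, and the count was 0 under each of 12 other settings. At an unadjusted p under 0.05, 1 of the 38 was called, Ccne1, where 7.24% of all genes were. The 95% intervals of 37 of the 38 included no change. The intervals of 36 lay inside a 2-fold difference in either direction and those of 33 inside a 1.5-fold difference, on the log2(FPKM + 1) scale and each taken alone. The 5 whose intervals reached past 1.5-fold were Tyms, Aurkb, Ccne1, Cdc6 and Bub1. The median level of the 38 was 40.6 FPKM, against 18.4 FPKM for all genes tested. Their intervals had a median half-width of 0.24 on the log2 scale, against 0.36.

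**Figure D2:**
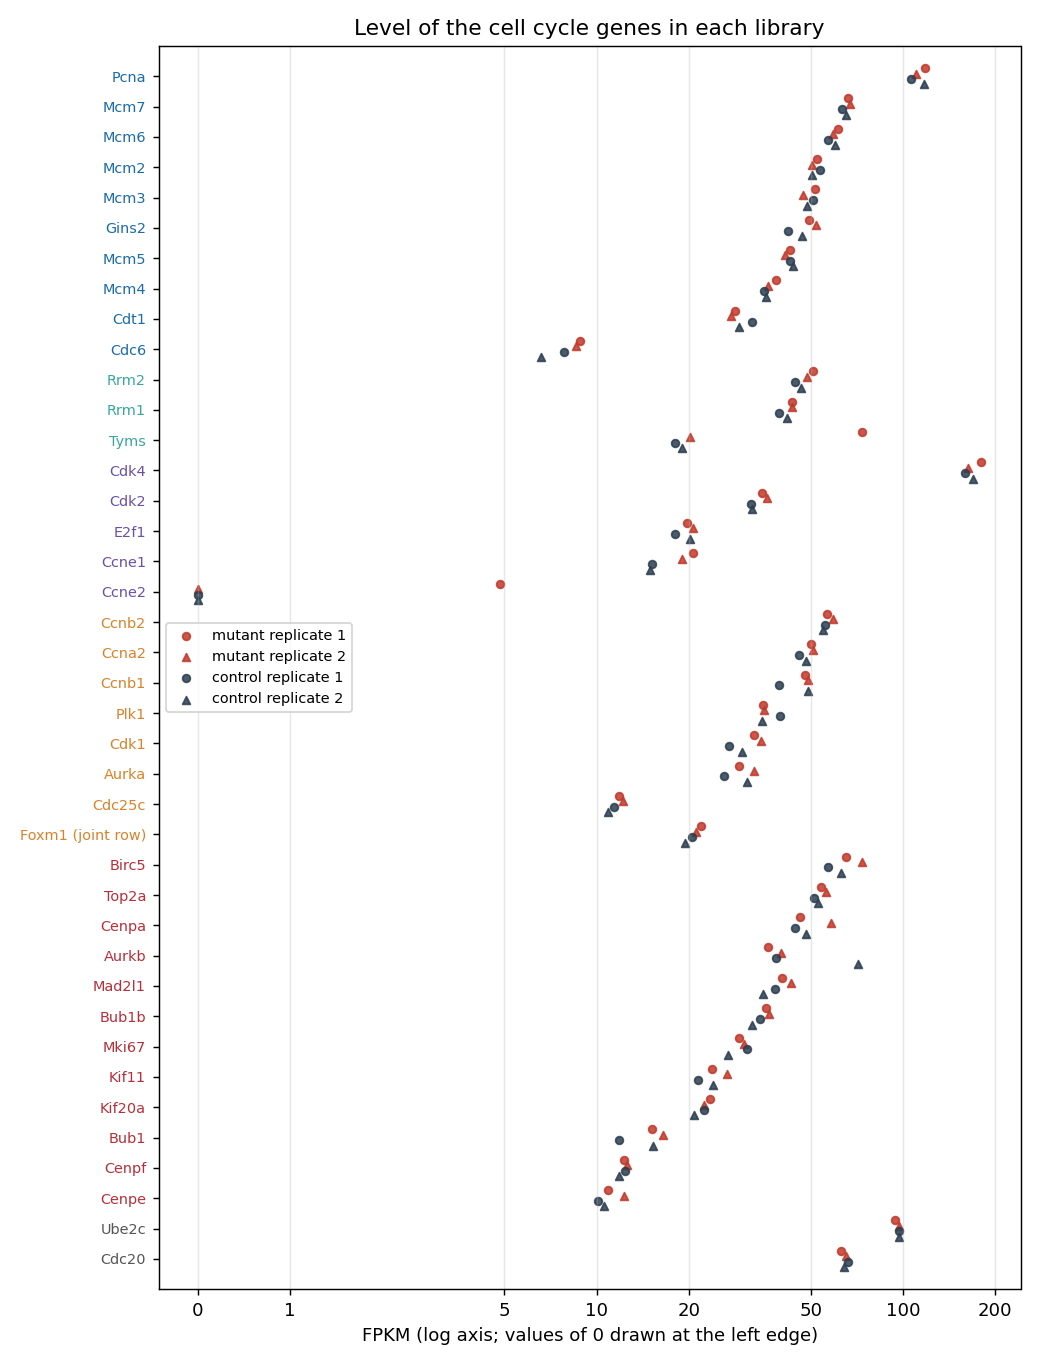
FPKM of each cell cycle gene (log axis) in the 2 mutant libraries (red) and the 2 control libraries (dark blue), grouped by role and ordered by mean level within a role. The 4 values of most genes lie close together, from 8.85 FPKM or less for Cdc6 to between 159 and 180 FPKM for Cdk4, and Tyms, Aurkb and Ccne2 each have 1 library apart from the others.

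The markers of dividing cells were present in all 4 libraries. Pcna (mm9 chromosome 2, 132075022 to 132078975 at its longest), the clamp that holds DNA polymerase on its template, was at 118 and 111 FPKM in mutant libraries, against 106 and 117 in control libraries. The locus overlapped that of Cds2 in 1 library, and whether reads were assigned by strand is not stated, so its values are uncertain. Its groups overlapped, and its log2 change was 0.03, with a 95% interval from -0.19 to 0.26 (SE 0.08; limma adjusted p = 0.919). Mki67, the perichromosomal protein Ki-67, was at 29.2 and 30.4 FPKM in mutant libraries, against 30.9 and 26.9 in control libraries. These groups overlapped too, with a log2 change of 0.05 (SE 0.10; limma adjusted p = 0.914) and a 95% interval from -0.23 to 0.32.

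The 6 subunits of the replicative helicase kept 1 order of level in all 4 libraries, Mcm7 highest, then Mcm6, Mcm2, Mcm3, Mcm5 and Mcm4. Mcm7 was at 66.0 and 67.2 FPKM in mutant libraries and at 63.1 and 64.9 in control libraries. Mcm4 was at 38.5 and 36.1 FPKM in mutant libraries and at 35.1 and 35.8 in control libraries. The ratio of the highest to the lowest subunit was between 1.71 and 1.86 in the 4 libraries. Neighbours in this order were close: Mcm2 averaged 51.3 ± 1.36 FPKM and Mcm3 49.5 ± 3.19 in mutant libraries, against 51.9 ± 2.16 and 49.6 ± 1.67 in control libraries (SD, n = 2 each). These SDs are of each gene between libraries and do not measure the difference of the pair within a library. That difference was not tested, and in mutant replicate 1 it was as small as 52.2 against 51.7 FPKM. FPKM is scaled to transcript length, but uneven coverage along a transcript can still move a level between genes. The log2 changes of the subunits ran from -0.04 (Mcm5) to 0.07 (Mcm4). The mutant values lay above both controls for Mcm4 and Mcm7 and below both for Mcm5, at 105%, 104% and 97.1% of the control mean. The Mcm7 locus overlaps the microRNA genes Mir25, Mir93 and Mir106b, listed as loci of their own.

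The loading factors were not alike. Cdt1, which brings the helicase to the origin, was at 28.2 and 27.5 FPKM in mutant libraries, against 32.2 and 29.1 in control libraries. Cdc6, its partner in loading, was at 8.85 and 8.55 FPKM in mutant libraries, against 7.83 and 6.60 in control libraries. Neither pair of groups overlapped, Cdt1 being lower in the mutant libraries and Cdc6 higher. With log2 changes of -0.13 (SE 0.09) and 0.24 (SE 0.14), both had a limma adjusted p of 0.764. Gins2, a subunit of the complex that activates the helicase, was at 49.4 and 52.1 FPKM in mutant libraries and at 42.0 and 46.6 in control libraries, a log2 change of 0.19 (SE 0.09; limma adjusted p = 0.758). Its locus overlaps that of Gse1, and its values are uncertain for the same reason as those of Pcna, as are those of Mcm7 and of the other overlapping loci named below.

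Among the enzymes that supply nucleotides, Rrm1 and Rrm2, the subunits of ribonucleotide reductase, had small positive differences without overlap. Rrm1 was at 43.4 FPKM in both mutant libraries and at 39.4 and 41.9 in control libraries, and Rrm2 was at 50.96 and 48.7 FPKM in mutant libraries and at 44.3 and 46.6 in control libraries. Their log2 changes were 0.09 and 0.13. Tyms, thymidylate synthase, was at 73.5 and 20.1 FPKM in mutant libraries, against 18.01 and 18.98 in control libraries. Mutant replicate 1 alone was high, and it was also the library in which the assembled Tyms locus was longest, 33633 bp (mm9 chromosome 5, 30366533 to 30400165) against 15426 bp in the others. The log2 change of 1.03 (SE 0.62; limma adjusted p = 0.764) had a 95% interval from -0.63 to 2.69, and without mutant replicate 1 it was 0.12.

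Of the regulators of the G1 to S transition, Ccne1 stood out from the rest in size. Ccne1 encodes cyclin E1, the partner of Cdk2, and lies on mm9 chromosome 7 from 38883003 to 38892509. Its level was 20.6 and 19.1 FPKM in mutant libraries, against 15.1 and 14.9 in control libraries. Both mutant libraries were above both controls, the mutant mean being 132% of the control mean. The log2 change was 0.38 (SE 0.10), with a 95% interval from 0.11 to 0.65, an unadjusted p of 0.016 and a limma adjusted p of 0.474, so that it did not pass over all genes. Leaving out any 1 library gave changes between 0.33 and 0.43, with limma adjusted p values between 0.274 and 0.999. Its locus had the same bounds in every library and overlapped no other named gene.

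The other regulators of this step had smaller differences. Cdk2, the kinase itself, was at 34.6 and 36.1 FPKM in mutant libraries and at 31.9 and 32.1 in control libraries, a log2 change of 0.14 (SE 0.08; limma adjusted p = 0.764). Cdk4, the kinase of D cyclins, had the highest level among the listed cell cycle genes, at 180 and 163 FPKM in mutant libraries and at 159 and 170 in control libraries. E2f1, a transcription factor of S-phase genes, was at 19.6 and 20.7 FPKM in mutant libraries against 17.98 and 20.1 in control libraries. The groups of Cdk4 and of E2f1 overlapped. Ccne2, cyclin E2, was listed at 4.84 FPKM in mutant replicate 1 and at 0 in mutant replicate 2 and both control libraries. Because it did not reach 1 FPKM in at least 2 libraries, it was left out of the test and no fold is given. Among the alternatives, only that with no filter on low values included it. Its locus had the same bounds in all 4 libraries and overlapped Ints8, and a listed 0 can be a failed estimate.

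**Figure D3:**
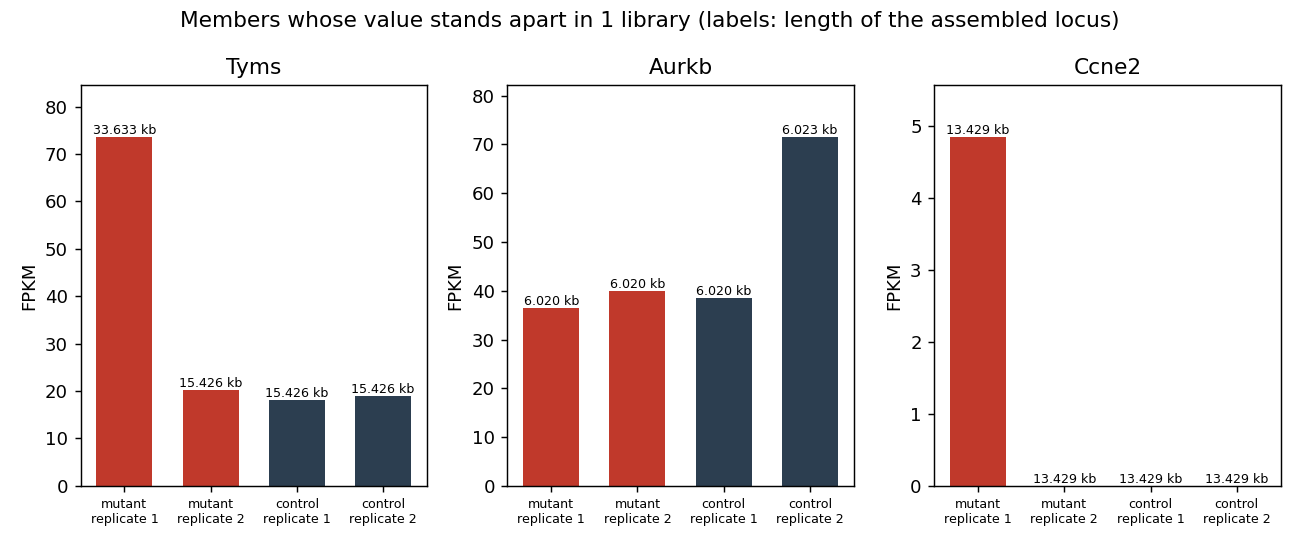
FPKM (bars) of Tyms, Aurkb and Ccne2 in each mutant (red) and control (dark blue) library, with the length of the assembled locus above each bar. Tyms is high in mutant replicate 1, where its locus is longest, Aurkb is high in control replicate 2, and Ccne2 is above 0 in mutant replicate 1 alone.

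The genes that drive the cell into mitosis differed by 0.23 or less on the log2 scale. Cdk1 was at 32.5 and 34.5 FPKM in mutant libraries, against 27.0 and 29.7 in control libraries, with no overlap. Its log2 change of 0.23 (SE 0.09) had a limma adjusted p of 0.722 and an interval from -0.01 to 0.48. The cyclins had smaller differences. Ccnb2 was the highest of this group, at 56.5 and 59.2 FPKM in mutant libraries and 55.7 and 55.0 in control libraries. Ccnb1 was at 47.7 and 49.1 FPKM in mutant libraries, against 39.4 and 49.0 in control libraries, so that its change of 0.14 rests on control replicate 1, and Ccna2, whose locus overlaps Exosc9, was at 49.9 and 50.7 against 45.9 and 48.1. Without control replicate 1 the change of Ccnb1 was -0.02. Cdc25c, the phosphatase that switches Cdk1 on, was the lowest, at 11.9 and 12.2 FPKM in mutant libraries and 11.4 and 10.9 in control libraries. The Polo kinase Plk1 was the member of this group with a negative change, at 35.0 and 35.2 FPKM in mutant libraries against 39.7 and 34.7 in control libraries (log2 change -0.08, SE 0.10; limma adjusted p = 0.838). Its groups overlapped, as did those of the Aurora kinase Aurka, at 29.2 and 32.6 FPKM in mutant libraries and 26.1 and 30.9 in control libraries. The row shared by Foxm1 and 4933413G19Rik was at 21.9 and 21.2 FPKM in mutant libraries and at 20.5 and 19.4 in control libraries, and the share of Foxm1 in it is unknown.

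Genes of the chromosomes, kinetochores and spindle had positive changes in 11 of 12 cases, none past the threshold. Birc5, survivin, a subunit of the chromosomal passenger complex, had the highest level of them, at 65.1 and 73.4 FPKM in mutant libraries, against 56.8 and 62.7 in control libraries. Cenpe, a kinetochore motor, had the lowest, at 10.9 and 12.2 FPKM in mutant libraries and 10.1 and 10.53 in control libraries. Neither pair of groups overlapped. Log2 changes were 0.21 (SE 0.10; limma adjusted p = 0.764) for Birc5 and 0.15 (SE 0.12; limma adjusted p = 0.772) for Cenpe. The spindle checkpoint genes lay in the same range. Mad2l1 was at 40.2 and 43.1 FPKM in mutant libraries against 38.1 and 34.9 in control libraries, Bub1b at 35.6 and 36.6 against 34.2 and 32.1, and Bub1 at 15.1 and 16.5 against 11.8 and 15.3. Groups overlapped for Bub1 only among these 3. The assembled Mad2l1 locus had different bounds in each library, with lengths from 5733 to 6607 bp, so its values are uncertain too.

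The histone variant Cenpa, which marks centromeres, was at 46.2 and 58.1 FPKM in mutant libraries against 44.3 and 48.2 in control libraries, the high value being that of mutant replicate 2. Top2a, which untangles sister chromatids, was at 53.8 and 56.0 FPKM in mutant libraries and at 51.02 and 52.9 in control libraries. The kinesins Kif11 and Kif20a were at 23.8 and 26.6 against 21.4 and 24.0, and at 23.4 and 22.4 against 22.4 and 20.8 FPKM, in mutant and control libraries. The large kinetochore protein Cenpf was at 12.2 and 12.6 FPKM in mutant libraries and 12.3 and 11.8 in control libraries. Among these 5 genes the groups did not overlap for Top2a and Kif20a. The Kif20a locus overlaps Brd8 and Cdc23.

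Aurkb, the kinase of the passenger complex, was the exception in sign, at 36.4 and 39.9 FPKM in mutant libraries and at 38.6 and 71.5 in control libraries. The value of control replicate 2 stood apart, while the other 3 lay between 36.4 and 39.9 FPKM. The locus in that library was 6023 bp, against 6020 bp in the others. The log2 change of -0.45 (SE 0.31; limma adjusted p = 0.764) was -0.02 without control replicate 2.

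Genes of the exit from mitosis were nearly level. Cdc20, an activator of the anaphase-promoting complex, was at 62.9 and 65.3 FPKM in mutant libraries and 65.9 and 64.3 in control libraries. Ube2c, the ubiquitin-conjugating enzyme of that complex, was at 94.2 and 96.8 FPKM in mutant libraries, against 96.9 and 97.0 in control libraries. Both had a log2 change of -0.02, with 95% intervals from -0.20 to 0.16 for Cdc20, whose locus overlaps Elovl1, and from -0.19 to 0.15 for Ube2c.

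**Figure D4:**
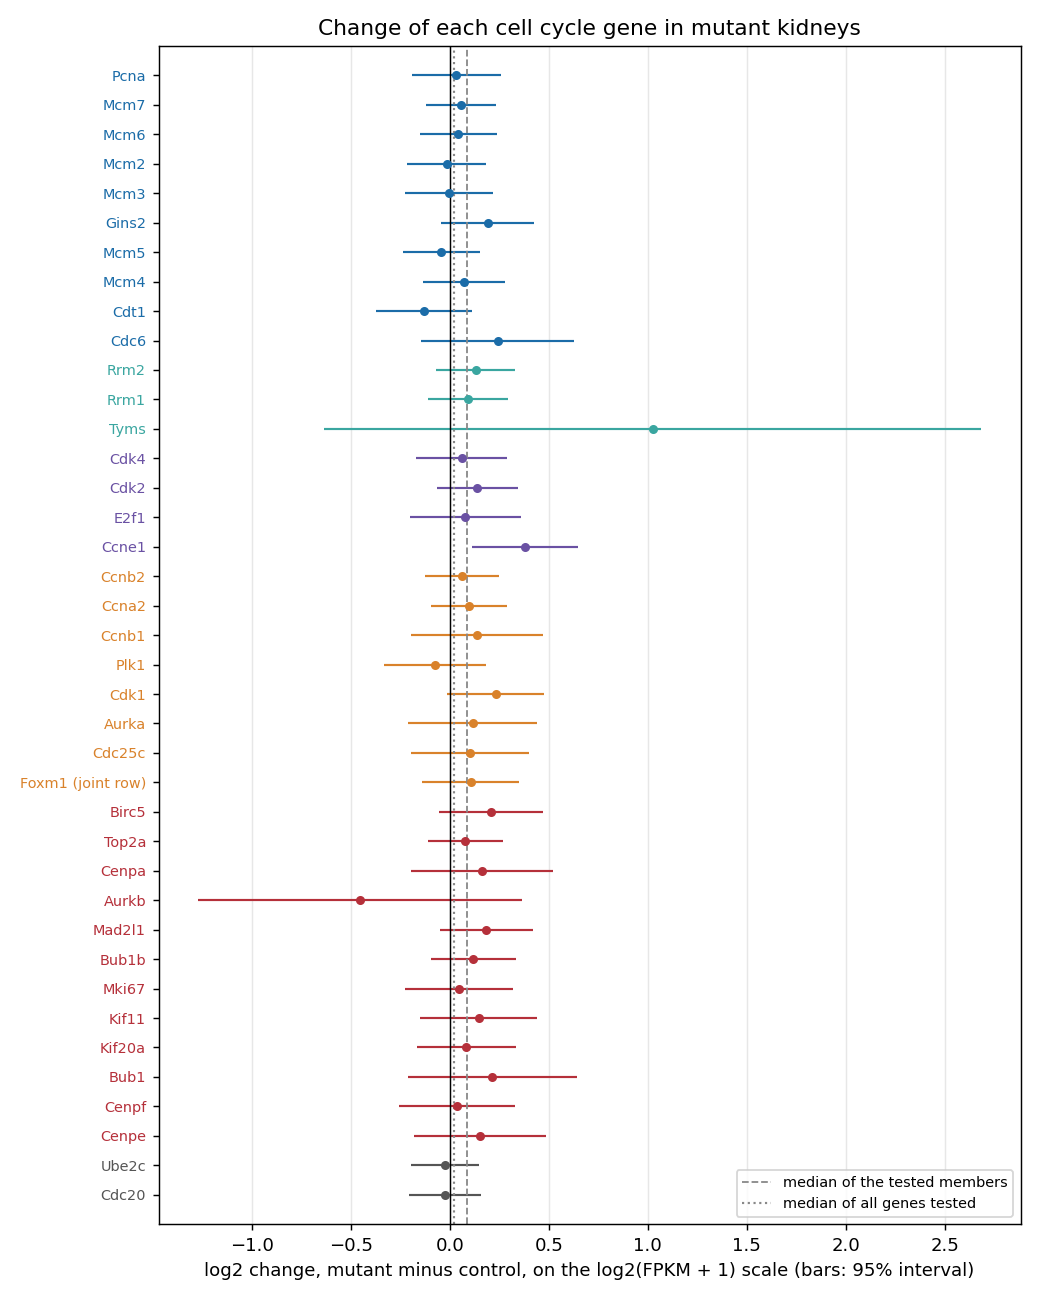
Log2 change (mutant minus control, on the log2(FPKM + 1) scale) of each tested cell cycle gene and of the row Foxm1 shares, with 95% intervals from limma, coloured by role. Apart from Tyms and Aurkb, whose intervals are the widest, the estimates lie between -0.13 and 0.38, and the interval of Ccne1 alone leaves out 0.

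Across the list, most differences were small and positive. Changes were positive for 30 of the 38 genes, where 55.3% of all genes tested were positive, with a median of 0.09 against 0.02 for all genes. Both mutant libraries were above both control libraries for 19 of the 38, where this held for 22.7% of all genes, and below both for 3 (Cdt1, Mcm5 and Ube2c), where it held for 17.1%. Replication genes had a median of 0.07 (13 of 17 positive) and mitosis genes a median of 0.10 (17 of 21 positive), and the difference between them was not tested. These genes vary together from library to library, so the counts do not stand for independent observations and have no p here. The median size of a gene's difference between groups was 0.10 on the log2 scale, against 0.06 between the mutant libraries and 0.09 between the control libraries. Over all genes tested these medians were 0.12, 0.11 and 0.17. The first is a difference of means of 2 libraries and the others are differences of single libraries, which scatter more, so the sizes are not on an equal footing. Control replicate 1 held the lowest value of the 4 for 21 of the 38 genes, and mutant replicate 2 the highest for 20. Such shares were not counted over all genes. Control replicate 1 also had the lowest median-of-ratios factor (the median over genes of the ratio to a gene's mean level), 0.979. The factor was 1.002 in control replicate 2, and 1.003 and 1.009 in mutant replicates 1 and 2. Without control replicate 1 the median change was 0.06 over all 38, where the median of all genes was 0.01, and 0.04 for the replication genes. Summed over the 36 tested genes other than Tyms and Aurkb, the level was 1641 and 1654 FPKM in mutant libraries and 1540 and 1587 in control libraries. Among genes with a window, the 8 with an E2F word had a median change of 0.05 and the 15 with both CHR and CCAAT one of 0.06. The 6 with none of these words (Birc5, Ccne1, Cdk4, E2f1, Mad2l1 and Tyms) had one of 0.20, with changes from 0.06 to 1.03 (Tyms). Cdk1 and Mcm7 are in both of the first 2 sets. Genes with CCAAT alone are in none of the 3 sets, at 0.03 (Pcna), 0.09 (Rrm1), 0.13 (Rrm2), 0.14 (Ccnb1) and 0.15 (Cenpe). Differences between these sets were not tested, and a missing word does not show that a gene is not controlled by these factors.

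The mitosis genes had an order between the mutant libraries. Of the 21 tested, 20 were higher in mutant replicate 2 than in mutant replicate 1, Kif20a being the exception, by a median of 0.06 on the log2 scale. Of the 17 replication genes, 5 were higher in mutant replicate 2, where 52.8% of all genes tested were. In the wider lists described below, 35 of 42 further mitosis genes were higher in mutant replicate 2. Of 35 further replication genes 18 were, near the share of all genes, so the low count of replication genes did not extend to that list. Between the control libraries 12 of the 21 mitosis genes and 12 of the 17 replication genes were higher in replicate 2. Each of these is a difference between single libraries and has no test. The libraries of each number also differ in sex-linked transcripts, Xist being at 0.131 and 74.0 FPKM in mutant replicates 1 and 2 and at 0.0789 and 81.0 in control replicates 1 and 2. The part of sex in the order of the mitosis genes was not tested.

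**Figure D5:**
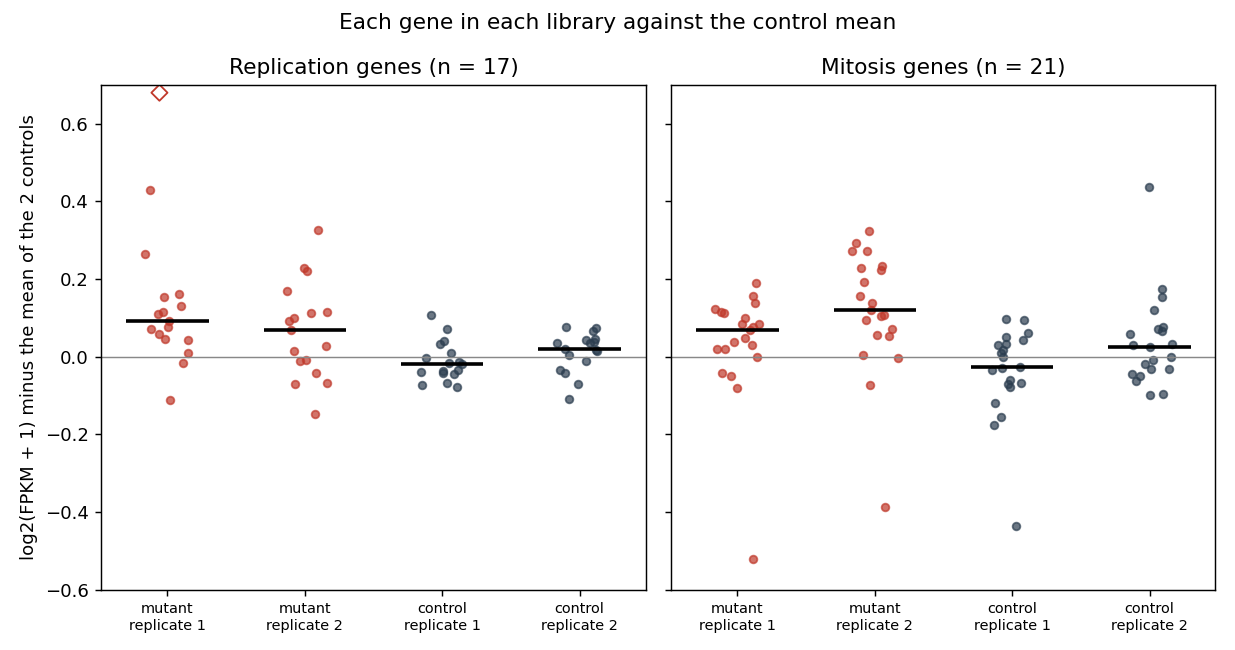
Log2(FPKM + 1) of each tested replication gene (left) and mitosis gene (right) in each library, minus that gene's mean over the 2 control libraries; points are genes, black lines are medians over genes, and the open diamond is a value beyond the axis (Tyms). Medians in mutant replicates 1 and 2 are 0.09 and 0.07 for replication genes and 0.07 and 0.12 for mitosis genes, against -0.02 and 0.02, and -0.03 and 0.03, in control replicates 1 and 2.

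Other genes of the same machinery were looked up from wider lists. Of 35 further replication genes tested, 0 passed over all genes, 30 had positive changes and the median was 0.14. The largest differences were those of Gins1, a Gins subunit, at 74.0 and 37.8 FPKM in mutant libraries and 32.2 and 33.4 in control libraries, and of Rnaseh2a, a subunit of the nuclease that removes ribonucleotides from DNA, at 28.6 and 23.6 against 14.9 and 18.8. As with Tyms, the high value of Gins1 was in mutant replicate 1. Of 42 further mitosis genes, 0 passed, 33 were positive and the median was 0.12. There the largest differences were those of Plk4, a kinase of centriole duplication, at 25.2 and 22.6 FPKM in mutant libraries against 16.0 and 19.4 in control libraries, and of Hmmr, a spindle protein, at 16.9 and 19.7 against 11.7 and 15.3. Their limma adjusted p values were 0.604 and 0.725, and 0.764 for Gins1 and 0.495 for Rnaseh2a. At an unadjusted p under 0.05, 3 of the 35 and 3 of the 42 were called, where 7.24% of all genes were. Positive changes were found in 55.3% of all genes tested. Both mutant libraries were above both controls for 22 of the 35 and 17 of the 42, where this held for 22.7% of all genes. They were below both for 2 and 0, where this held for 17.1%. Like those of the 38, these counts are not of independent observations and have no p.

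Other regulators of the cycle were mixed in sign. The D cyclins and Cdk6, which act before cyclin E, had negative changes in 4 of 4 cases, with a median of -0.10 and 0 past the threshold. Ccnd3 was at 81.3 and 77.9 FPKM in mutant libraries, against 86.8 and 89.1 in control libraries, and Cdk6 at 6.23 and 6.61 against 8.12 and 7.07. Both pairs of groups were without overlap. Among inhibitors of cyclin-dependent kinases and pocket proteins, 5 of 9 were positive, with a median of 0.01 and 0 past the threshold, the largest differences being those of the inhibitors Cdkn2c, at 14.2 and 13.9 FPKM in mutant libraries and 12.4 and 10.9 in control libraries, and Cdkn2d, at 33.9 and 38.9 against 27.8 and 33.1. The other E2f and Tfdp genes had 8 of 9 positive, with 0 past the threshold and a median of 0.15. E2f7 was at 7.62 and 6.16 FPKM in mutant libraries and at 6.59 and 4.91 in control libraries, and E2f2 at 6.55 and 5.87 against 6.04 and 4.60.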

How the data were processed

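Poly(A) RNA of whole E18.5 kidneys was the input of the sequencing libraries (ThruPLEX), per the labels' protocols. The deposited FPKM values, with interval bounds, were made by the authors, 1 library per table; the submitters' processing notes name TopHat2 2.0.11, Bowtie 1.0.0, SAMtools 0.1.19, Cufflinks 2.1.1 and mm9, but no annotation or option (not given in the sources used here). Identifiers differ from table to table, so loci were assembled library by library and their bounds can move an FPKM: 14 of the 39 genes with a row had bounds that differed, 1 of them (Tyms) by over 1000 bp, and 7 overlapped another named locus in at least 1 library.

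Tables were joined by gene name: 22761 of 23852 names were in all 4, 99 with a row not marked OK were left out, and FPKM was summed over rows sharing a name. The test used every gene that reached 1 FPKM in 2 or more libraries: limma 3.58.1 under R 4.3.3 on log2(FPKM + 1), two-sided, with genotype group the sole factor and the variance prior following mean level, adjusted over all 13287 genes, with 95% intervals from the moderated fit; this scale understates changes at low levels. The fit was tested on simulated data. The genes and lists were chosen with earlier results of these data known. Values per library are given for the highest and lowest gene of each role, the 3 largest changes either way, Pcna and Mki67, and for the other genes described beside them, which were named after their values were seen; other pathway lists give the 2 largest changes. Promoter windows are RefSeq's on GRCm38.p6, another build than that of the tables, so no coordinates were carried over. Alternatives changed the pseudocount, filter, scaling, variance trend, shared rows, the replicate number taken as a block, and leaving out each library; medians without Tyms and Aurkb were added after seeing the data.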

Additional observations from a re-analysis of the deposited data

How the results depend on the processing

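In all 12 alternatives 0 of the tested cell cycle genes passed an adjusted p of 0.05 with limma, with between 0 and 5 at an unadjusted p under 0.05. The median change was positive in each of them for all 38 genes, for replication genes and for mitosis genes, and leaving out Tyms and Aurkb moved none of these medians beyond the spread between libraries. Leaving out 1 library gave medians from 0.061 (without control replicate 1) to 0.10 over all 38, and from 0.036 (without control replicate 1) to 0.11 (without control replicate 2) for replication genes. Median-of-ratios scaling lowered the median from 0.088 to 0.067 over all 38. It went from 0.072 to 0.051 for replication genes and from 0.102 to 0.082 for mitosis genes. The median of all genes tested went from 0.022 to 0.003, so part of the positive shift was shared by all genes. The number of genes called among all tested was 21, against 41 with no filter on low values, 33 with a filter at 5 FPKM, 11 with no variance trend and 6 with the replicate number as a block, and between 0 (without either control replicate) and 14 without 1 library. The replicate numbers pair nothing that the labels name, but in both groups replicate 1 was low and replicate 2 high in Xist. The block therefore also takes up a difference in sex. Deviations of libraries with the same number correlated at 0.15 over genes, and the block changed no call of a cell cycle gene.

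Among single genes, 444 of 456 values kept their sign and stayed short of the threshold. The other 12 were small changes that switched sign when 1 library was left out, the cause of which was not tested. Their ranges were -0.0039 to 0.23 for Aurka, -0.018 to 0.29 for Ccnb1, -0.049 to 0.0049 for Cdc20, -0.0084 to 0.13 for Cdk4, -0.058 to 0.026 for Mcm2, -0.070 to 0.059 for Mcm3, -0.052 to 0.14 for Mki67, -0.034 to 0.10 for Pcna and -0.17 to 0.018 for Plk1. A library left alone in its group was assumed to vary as the opposite group does. FPKM does not carry the read depth, so the counting error behind each value is unknown.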

Other observations

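In the authors' deposited table, 7 of 160 values of these genes (the row shared with Foxm1 included) lay above the upper bound of their own interval. They were Cdk4 in both mutant libraries and control replicate 2, Ube2c in the same 3 libraries, and Pcna in control replicate 2. For Ube2c the authors' deposited table gave 94.2 FPKM with bounds of 67.7 and 86.3 in mutant replicate 1, and 97.0 FPKM with bounds of 69.9 and 86.7 in control replicate 2. Some intervals were far wider. In the authors' deposited table that of Cdk4 in control replicate 1 ran from 0 to 29882 FPKM, and the upper bound of Mcm5 was 25833 FPKM in mutant replicate 2 and 29765.5 FPKM in control replicate 1. The intervals were not used for any comparison here.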
